A study of Mus musculus with 10 samples.

Results

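The genes described here code for inhibitors that act on the ERK cascade, and they were measured in the hippocampus of Dp1Rhr mice, a partial trisomy model of Down syndrome, and of control littermates. They are 10 of the 19938 genes named on the arrays: the dual specificity phosphatases Dusp1, Dusp2, Dusp4, Dusp5 and Dusp6, the Sprouty genes Spry1, Spry2 and Spry4, and the SPRED genes Spred1 and Spred2. The set was chosen on measured values of this same Dp1Rhr and control comparison, so its differences between the groups are given below as a description and support nothing further. Each gene was read from the probe sets that carry its symbol alone, and the brightest one was taken where there were several. RNA of the left and right hippocampus of a mouse went onto 1 Affymetrix Mouse Gene 1.0 ST array, and the values are RMA signals on a log2 scale, so that a difference of 1 is a doubling.

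The Dp1Rhr group held 5 male mice of 16 weeks with the Cbr1 to Fam3b stretch of chromosome 16 duplicated in tandem, which gives a dosage of 3 for that interval in every cell of the body. The control group held 5 male littermates of the same age with the normal dosage. Both groups came from a cross of Dp5Yah and Dp1Rhr mice and are given the C57BL/6N background by the labels. The labels call the arrays biological replicates. Dyrk1a, a kinase gene inside the duplication, checked the labels: its signal ran from 11.65 to 11.80 in controls and from 11.97 to 12.06 in Dp1Rhr mice, 1.21-fold higher on average. None of the 10 genes lies in the duplication or elsewhere on chromosome 16. Their chromosomes are 2 (Dusp2 and Spred1), 3 (Spry1), 8 (Dusp4), 10 (Dusp6), 11 (Spred2), 14 (Spry2), 17 (Dusp1), 18 (Spry4) and 19 (Dusp5).

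ERK is the last kinase of a cascade that runs from growth factor receptors through RAS, RAF and MEK. Active ERK switches on transcription, and among the genes it induces are its own inhibitors: phosphatases that remove the activating phosphates from MAP kinases, and Sprouty and SPRED proteins that act upstream, between the receptor and RAF. In neurons the same cascade follows synaptic activity, and several of these inhibitors belong to the genes that activity induces within minutes to hours.

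The promoter windows of Dusp1 and Dusp5 are shown because they hold elements for the factors of activity-dependent transcription, and because these 2 genes differed in how they varied between arrays. Each window runs from 250 bases before to 50 bases after the RefSeq start, on the strand of the gene, in GRCm38.p6. Dusp1 is at chr17:26508423-26508722 on the minus strand and Dusp5 at chr19:53528895-53529194 on the plus strand. Capitals mark a CRE and an E-box in Dusp1 and adjoining CArG boxes in Dusp5.
Dusp1: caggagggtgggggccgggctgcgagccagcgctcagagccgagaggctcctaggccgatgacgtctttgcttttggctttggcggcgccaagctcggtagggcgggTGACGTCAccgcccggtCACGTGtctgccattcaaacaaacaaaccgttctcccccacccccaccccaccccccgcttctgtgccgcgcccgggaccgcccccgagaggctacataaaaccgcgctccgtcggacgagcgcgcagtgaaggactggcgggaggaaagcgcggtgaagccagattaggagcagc
Dusp5: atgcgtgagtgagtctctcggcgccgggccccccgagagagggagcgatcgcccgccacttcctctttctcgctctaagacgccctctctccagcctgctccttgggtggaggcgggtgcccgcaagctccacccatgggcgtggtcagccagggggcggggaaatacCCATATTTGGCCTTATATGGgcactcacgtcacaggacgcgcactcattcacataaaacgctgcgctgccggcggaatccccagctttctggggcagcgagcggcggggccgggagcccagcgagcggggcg
The Dusp1 capitals spell the CRE (TGACGTCA), the element bound by CREB, at -143 to -136 from the start site, and the E-box (CACGTG) at -126 to -121. On either strand, a CRE occurred in 1.79% and this E-box in 7.15% of the 32851 RefSeq windows of the same length. In Dusp5 the capitals are 2 CArG boxes, the element of serum response factor, at -82 to -73 and at -72 to -63, and 1.63% of all windows held at least 1 CArG box. Windows were matched for 8 of the 10 genes, all but Dusp4 and Spry4. A half-site of the CRE (TGACG), which the full CRE also contains, was found in Dusp1, Dusp2, Dusp5 and Spred2, and in 20.8% of all windows. The Dusp2 window held an EGR site (GCGNGGGCG; 5.55% of all windows) and an E-box, and that of Spry2 an ETS site (CCGGAA; 14.9%). The windows of Dusp6, Spry1 and Spred1 held none of these motifs, and an AP-1 site (TGANTCA; 7.81% of all windows) or a TATA box (TATAAA; 13.6%) was found in none of the 8. A match describes the letters of the window and is not evidence of binding.

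Among the arrays, control replicates 2 and 3 stood apart in their choroid plexus markers. Ttr, the transthyretin gene and the most abundant marker of choroid plexus, stood at 9.53 and 9.83 in control replicates 2 and 3, and at 13.24 to 13.45 in the other controls and 13.21 to 13.61 in Dp1Rhr mice. Over the list, 11 of 12 choroid plexus markers were measured, and all 11 had a higher mean in Dp1Rhr mice, by a median of 0.91 on the log2 scale. Their mean level ran from 7.04 to 9.29 in controls and from 8.82 to 9.71 in Dp1Rhr mice. Habenula markers (6 of 6 higher, median difference 0.56) and thalamus markers (4 of 6 lower, median -0.17) also differed between the groups. Habenula means were 8.223, 7.737 and 8.405 in Dp1Rhr replicates 2, 3 and 4, 7.543 in control replicate 3, and 6.92 to 7.12 on the other arrays. The thalamus mean was 9.04 in control replicate 1 and 8.28 to 8.59 on the other arrays. No fit adjusted for habenula or thalamus markers. No gene of the choroid plexus, habenula and thalamus lists passed the limma test described below. An unadjusted p under 0.05 was found in 9 of 11, 4 of 6 and 2 of 6 of their genes, and in 15.0% of all genes. Markers of hippocampal neurons were present in both groups, such as Prox1, of dentate granule cells, at 10.28 in controls and 10.33 in Dp1Rhr mice. Of 8 dentate markers 5 had a higher mean (median difference 0.05), and 1 of them, Tdo2, passed the limma test, at 0.25 higher. Of 7 CA pyramidal markers 6 had a lower mean (median -0.04) and none passed, with 0 at an unadjusted p under 0.05. Differences that rest on control replicates 2 and 3 are therefore given without them too for the inhibitor genes, their closest partners and the genes of the cascade with the largest differences. In bulk tissue, fewer cells of a type and less RNA per cell cannot be told apart.

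In Dp1Rhr mice, 7 of the 10 inhibitor genes had a lower mean than in controls, with a median difference of -0.14 on the log2 scale. Over all genes the median difference was 0.00, and 50.1% of genes had a lower mean in Dp1Rhr mice. Dusp1 had the largest difference of the set, followed by Dusp6 and Spred1, while Dusp2, Spry1 and Spry2 had slightly higher means. In 3 genes (Dusp1, Dusp6 and Spred2) every Dp1Rhr array lay below every control array, a pattern found in 1.70% of all genes. By limma with Benjamini-Hochberg adjustment over all genes, 0.802% of genes passed an adjusted p of 0.05 in either direction and 0.176% in the direction of a lower signal, and 1 of the 10, Dusp1, was among them. These counts follow from how the set was chosen and nothing is read from them. Dusp1 was not called when any 1 of control replicates 2, 3 and 5 or Dp1Rhr replicates 1 to 4 was left out. It was also not called without control replicates 2 and 3 together, nor with the choroid plexus markers as a covariate. Dusp6 and Spred1 joined it without Dp1Rhr replicate 5, and also in other settings that are given further below.

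**Figure D1:**
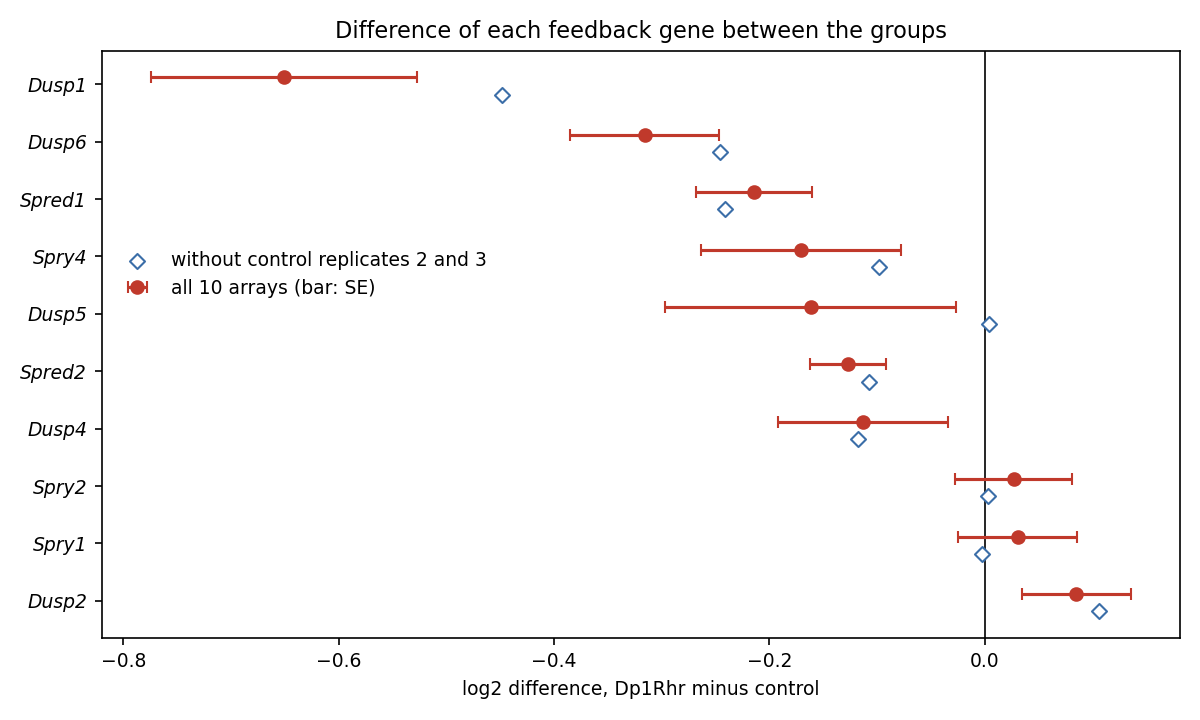
Difference in mean log2 RMA signal, Dp1Rhr minus control (5 arrays each), with its standard error, for each of the 10 inhibitor genes, with all controls and without control replicates 2 and 3. Dusp1 is farthest below 0 in both, at -0.65 and -0.45, and Dusp5 moves from -0.16 to 0.00.

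Among the phosphatases, Dusp1 (also MKP-1; chr17:26505591-26508472 in GRCm38) is nuclear, acts on p38, JNK and ERK, and is an immediate early gene. Its control arrays read 9.53, 10.04, 10.15, 9.58 and 9.65 in replicates 1 to 5. The Dp1Rhr arrays read 9.10, 9.34, 9.17, 8.88 and 9.21. The 2 groups did not overlap: the lowest control was 0.19 above the highest Dp1Rhr array, and control replicates 2 and 3 were the highest of all. The means were 9.79 ± 0.28 and 9.14 ± 0.17 (SD, n = 5 each), a difference of -0.65 ± 0.12 (SE), or 0.637 times the control signal. Without control replicates 2 and 3 the difference was -0.45, and with any 1 array left out it lay between -0.72 and -0.56. When a choroid plexus score (the mean z-score of the markers per array) was a covariate, it was -0.46. Because the groups did not overlap, leaving out arrays could not change the direction, and nothing is read from its sign. The size was smaller by about 0.2 without the controls that were low in choroid plexus markers.

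Dusp6 (MKP-3; chr10:99263231-99267489) is cytoplasmic, acts on ERK with high preference, and is a classical target of growth factor signalling. The controls read 9.93, 9.96, 10.29, 9.97 and 9.95, and the Dp1Rhr arrays 9.67, 9.76, 9.60, 9.68 and 9.82. The groups did not overlap, with a gap of 0.11, and control replicate 3 stood above the other controls, which lay close together. The difference was -0.32 ± 0.07 (SE), or 0.803 times, and -0.25 without control replicates 2 and 3. In Dusp6, unlike Dusp1, control replicate 2 was not raised.

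Dusp5 (chr19:53529145-53541809) codes for a nuclear phosphatase for ERK and is induced by ERK signalling. The controls read 8.59, 8.91, 9.53, 8.92 and 8.90, and the Dp1Rhr arrays 8.82, 8.88, 8.60, 8.89 and 8.84. The groups overlapped: all Dp1Rhr arrays lay within the range of the controls. The difference of -0.16 ± 0.14 (SE) came down to 0.00 without control replicates 2 and 3, and was 0.02 with the choroid plexus score as a covariate. The lower mean of Dusp5 thus rested on control replicate 3: with that array left out the difference was -0.02, the nearest to 0 when any 1 array was left out.

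Dusp4 (MKP-2; chr8:34807610-34819894) is nuclear and acts on ERK and JNK. The controls read 8.17, 8.09, 8.47, 8.33 and 8.39, and the Dp1Rhr arrays 8.29, 8.21, 8.12, 7.97 and 8.28. The groups overlapped, and the difference was -0.11 ± 0.08 (SE), with -0.12 without control replicates 2 and 3. With 1 array left out it ran from -0.16 to -0.06, the latter without Dp1Rhr replicate 4, and it was -0.07 without control replicate 3. Dusp2 (PAC-1; chr2:127336159-127338377), a nuclear phosphatase best known from immune cells, was dim, with a mean signal at the 30.7th percentile of all genes. Its controls read 6.11, 6.27, 6.11, 6.14 and 6.16, and its Dp1Rhr arrays 6.37, 6.15, 6.34, 6.21 and 6.14. The groups overlapped here too, and the difference was 0.08 ± 0.05 (SE).

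**Figure D2:**
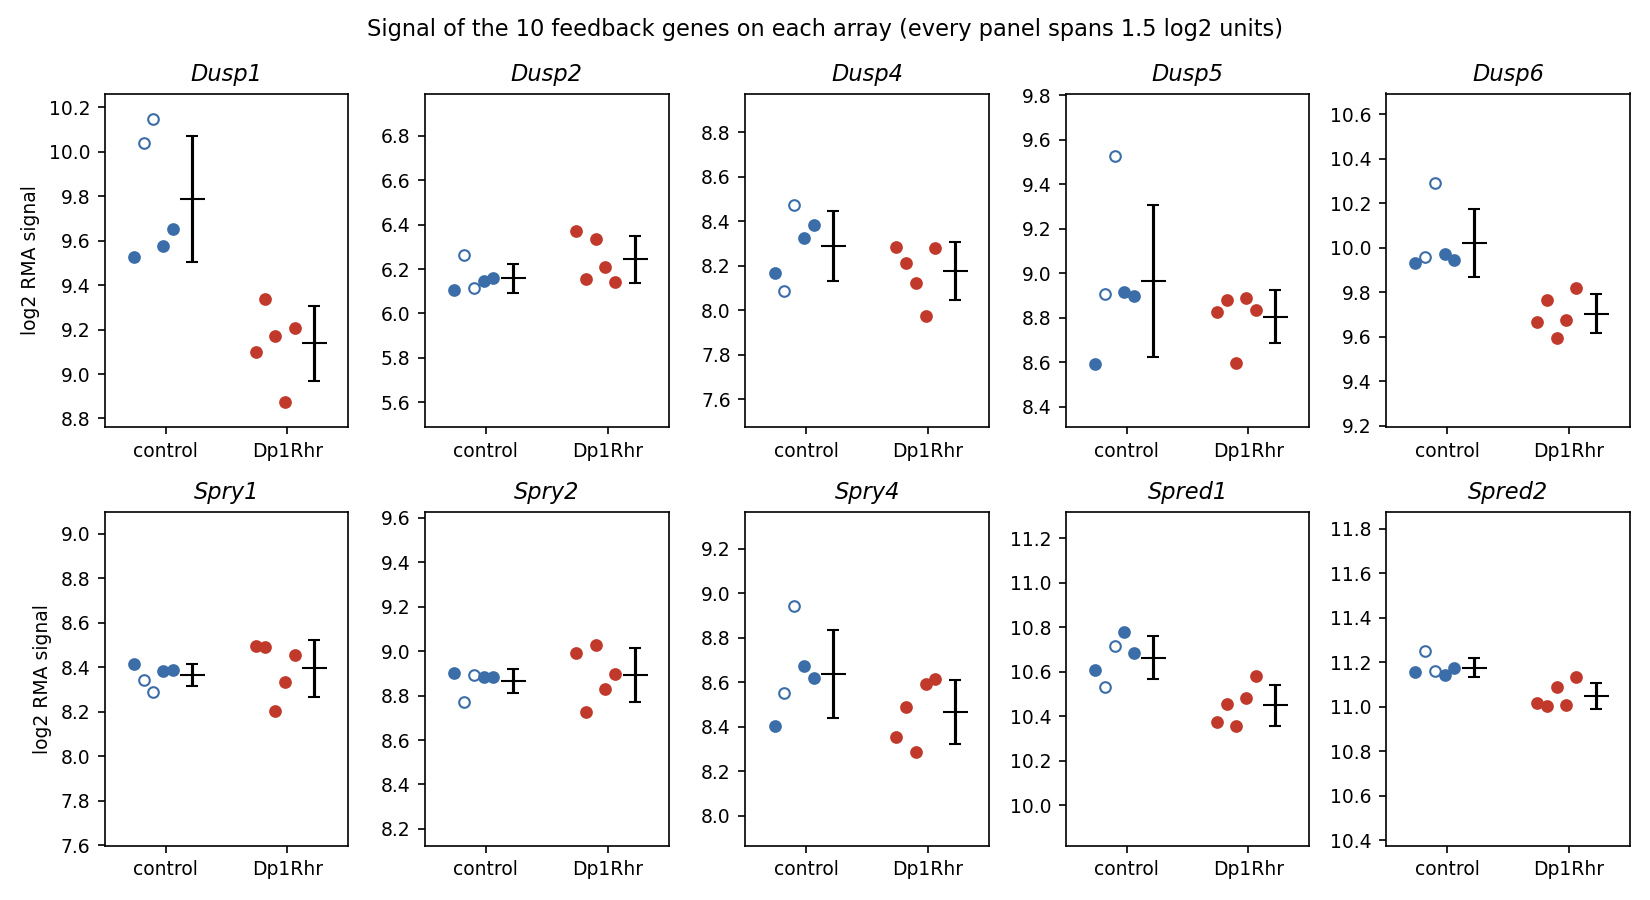
Log2 RMA signal of the 10 inhibitor genes on each array, controls in blue (replicates 2 and 3 hollow) and Dp1Rhr in red, with the mean ± SD of 5 arrays and panels of equal span. In Dusp1, Dusp6 and Spred2 the groups do not overlap, and in Dusp5, Dusp6 and Spry4 control replicate 3 stands above the other controls.

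Sprouty proteins block signalling from receptor tyrosine kinases to RAS and RAF, and are induced by FGF and other growth factors. Spry4 read 8.40, 8.55, 8.94, 8.68 and 8.62 in controls and 8.36, 8.49, 8.29, 8.59 and 8.61 in Dp1Rhr mice. The difference was -0.17 ± 0.09 (SE), or 0.888 times, with overlapping groups, and -0.10 without control replicates 2 and 3. It was -0.09 without control replicate 3 alone. Control replicate 3 was the highest array, as in Dusp5 and Dusp6.

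Spry1 (chr3:37639947-37644599) and Spry2 (chr14:105891947-105896819) showed no such lower level. Spry1 read 8.42, 8.34, 8.29, 8.38 and 8.39 in controls and 8.49, 8.49, 8.20, 8.33 and 8.45 in Dp1Rhr mice, a difference of 0.03 ± 0.06 (SE). Spry2 read 8.90, 8.77, 8.89, 8.89 and 8.88 in controls and 8.99, 8.73, 9.03, 8.83 and 8.90 in Dp1Rhr mice, a difference of 0.03 ± 0.05 (SE). In both, the Dp1Rhr arrays spanned the whole range of the controls, and without control replicates 2 and 3 the differences were -0.00 and 0.00.

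SPRED proteins hold the RAS GTPase activator neurofibromin at the plasma membrane and thereby keep RAS inactive. Spred1 (chr2:117121071-117182279) read 10.61, 10.53, 10.71, 10.78 and 10.68 in controls and 10.37, 10.45, 10.36, 10.48 and 10.58 in Dp1Rhr mice. The difference was -0.21 ± 0.05 (SE), or 0.862 times. The groups overlapped by 1 array only, Dp1Rhr replicate 5, and 4 of 5 Dp1Rhr arrays lay below every control. Here control replicate 2 was the lowest control, so the difference was slightly larger without control replicates 2 and 3, at -0.24. It was -0.26 with the choroid plexus score as a covariate.

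Spred2 (chr11:19924442-20024026) read 11.15, 11.25, 11.16, 11.14 and 11.17 in controls and 11.02, 11.001, 11.09, 11.01 and 11.13 in Dp1Rhr mice. The difference was -0.13 ± 0.03 (SE), or 0.916 times, and -0.11 without control replicates 2 and 3. The groups did not overlap, but the gap was only 0.009 log2 units. A second probe set for Spred2 gave a difference of -0.05. Of the 7 genes with a lower mean, Dusp1, Dusp5, Dusp6, Spry4 and Spred2 had a smaller difference without control replicates 2 and 3, and Dusp4 and Spred1 did not.

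Averaged over the 10 genes, the deviation from the control mean was -0.11, -0.02, 0.16, -0.01 and -0.01 in controls, and -0.15, -0.14, -0.22, -0.21 and -0.10 in Dp1Rhr mice. All but 1 of the Dp1Rhr arrays were below every control, and control replicate 1 reached the level of Dp1Rhr replicate 5. Among the controls, 5 of the 10 genes were highest in replicate 3 (Dusp1, Dusp4, Dusp5, Dusp6 and Spry4). Among the Dp1Rhr arrays, 5 were lowest in replicate 3 (Dusp5, Dusp6, Spry1, Spry4 and Spred1).

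How the genes varied among mice of 1 group was a separate question, answered here with deviations from the group means over the 10 arrays, which the choice of genes by group difference did not use. These correlations are descriptions: the arrays share tissue content, and only 10 points enter each. Of the 45 pairs, 24 had a positive Pearson's r and the median was 0.05. The closest pairs were Dusp5 with Spry4 (r = 0.89), Dusp5 with Dusp6 (0.88) and Dusp6 with Spry4 (0.853). Without control replicates 2 and 3 these were 0.825, 0.654 and 0.721, over 8 arrays. Without the 2 arrays farthest from the median of Dusp6, control replicate 3 and Dp1Rhr replicate 5, Dusp6 had r = 0.731 with Dusp5 and 0.599 with Spry4. Dusp5, Dusp6 and Spry4 are among the best known transcriptional targets of FGF and ERK signalling, and the part of that in their likeness was not tested. Spry1 and Spry2, of the same family as Spry4, had r = -0.337 with each other, and the lowest value was that of Dusp2 with Spred1, -0.743. The 10 genes did not vary as a single block in these arrays.

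The genes most like Dusp1 were picked from all genes by their r, so their lead over the other inhibitor genes follows from that choice. The 5 genes with the highest r to Dusp1 among all genes were Rasl10b (Pearson's r = 0.971, Spearman's rho = 0.964), Npas4 (0.940 and 0.903), Gspt2 (0.938 and 0.964), Egr1 (0.914 and 0.891) and Btg2 (0.913 and 0.903). Rasl10b codes for a RAS-like GTPase and Gspt2 for a translation termination factor. Npas4 and Egr1 are activity-induced transcription factors, and Btg2 is an early response gene that limits proliferation. Without control replicates 2 and 3 these r values were 0.966, 0.919, 0.933, 0.812 and 0.887 over 8 arrays. Without the 2 arrays farthest from the median of Dusp1, control replicate 3 and Dp1Rhr replicate 4, they were 0.952, 0.897, 0.884, 0.946 and 0.906. Dusp6 and Dusp5 came at 0.644 and 0.608, and Spred1 at -0.151. Of the 19938 genes, with Dusp1 itself counted, 695, 953 and 13073 had a higher r than these 3. Ttr, the choroid plexus marker, had r = -0.803 to Dusp1 (Spearman's rho = -0.588), and 19868 genes, counted in the same way, had a higher r. The r of Ttr was -0.535 without control replicates 2 and 3, and -0.872 without the 2 arrays farthest from the median of Dusp1. The part of tissue content in these likenesses was not tested.

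Between the groups, Npas4 differed by -0.85 ± 0.25 (SE; limma adjusted p = 0.12), Egr1 by -0.44 ± 0.13 (adjusted p = 0.133) and Btg2 by -0.39 (adjusted p = 0.0896). None of the 3 passed the test. Without control replicates 2 and 3 the differences were -0.51, -0.20 and -0.24, and with the choroid plexus score as a covariate -0.52, -0.16 and -0.23. Rasl10b, by contrast, differed by -0.01 ± 0.04 (SE; limma adjusted p = 0.968). Gspt2 differed by 0.13 ± 0.03 (SE; adjusted p = 0.102), in the opposite direction to Dusp1. Neither passed, and without control replicates 2 and 3 the differences of Rasl10b and Gspt2 were 0.05 and 0.16. The likeness of these 2 genes to Dusp1 was therefore one of variation within the groups, not of the difference between them.

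**Figure D3:**
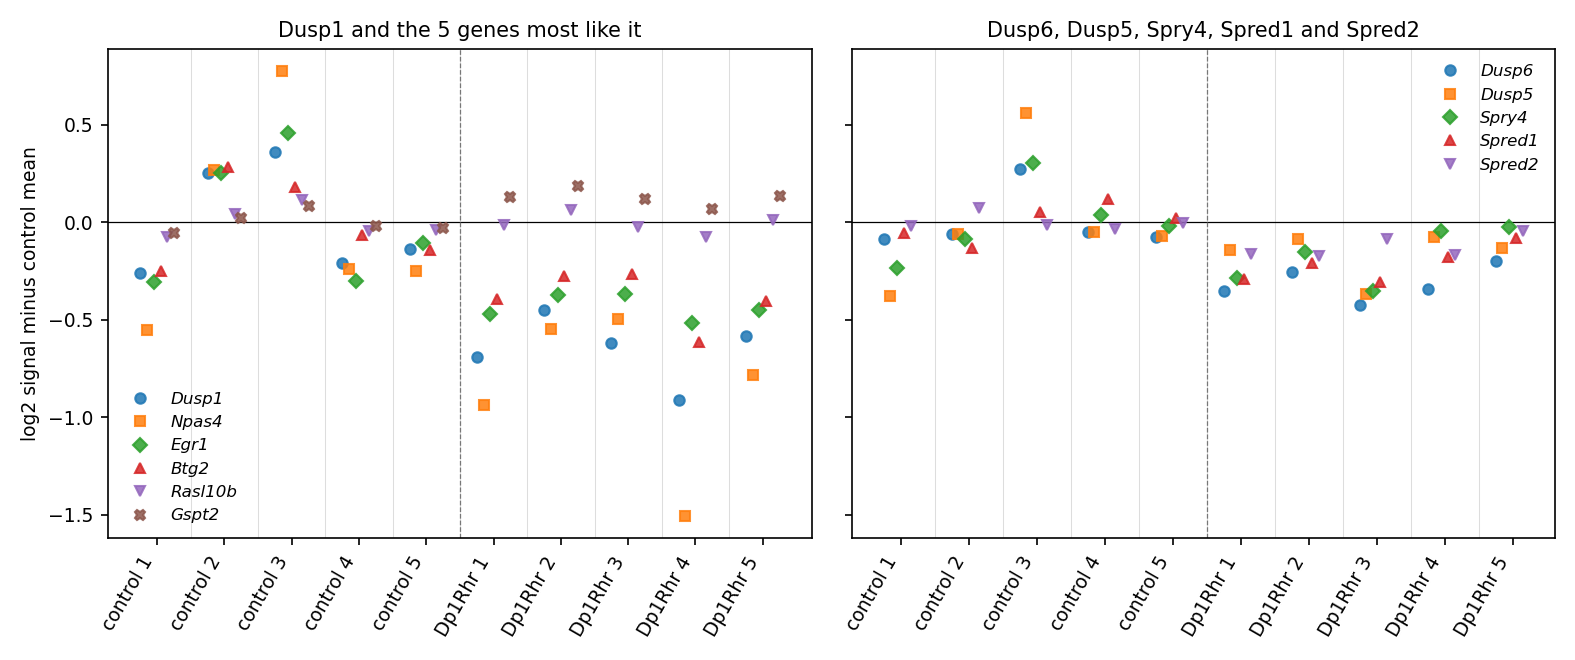
Log2 RMA signal minus the control mean on each of the 10 arrays, for Dusp1 with the 5 genes most like it within groups (left) and for Dusp6, Dusp5, Spry4, Spred1 and Spred2 (right). Dusp1, Egr1 and Btg2 are high in control replicates 2 and 3, with all Dp1Rhr arrays below every control. Npas4 is high in the same controls, but only 3 of 5 Dp1Rhr arrays lie below every control. Dusp5 and Spry4 are high in control replicate 3 alone.

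The rest of the cascade was read from lists of 124 genes by role, of which 112 were measured by a probe set with 1 symbol. By limma, 3 of the 112 passed an adjusted p of 0.05, as did 0.802% of all genes: Rras rose, and Fgfr3 and Junb fell. The median difference over the 112 genes was -0.03, with 68 lower and 44 higher, and 50.1% of all genes were lower. An unadjusted p under 0.05 was found in 32 of the 112 and in 15.0% of all genes. The lists were chosen with earlier results of these data known, and nothing is read from these counts. The other genes of the lists were not analysed here.

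Among the receptors and adaptors (20 measured, median difference -0.01), Fgfr3, an FGF receptor prominent in astrocytes, fell from 9.68 to 9.31, by 0.37 on the log2 scale (SE 0.07, adjusted p = 0.0471 by limma). No other gene of the list passed: Egfr, the EGF receptor, differed by -0.17 (adjusted p = 0.135) and Shc3, a neuronal adaptor, by -0.13 (0.156). Of 8 astrocyte markers, 6 had a higher and 2 a lower mean in Dp1Rhr mice (median 0.07), and none passed. An unadjusted p under 0.05 was found in 5 of the 8, and in 15.0% of all genes. The part of astrocyte content in the Fgfr3 difference was not tested. Among the RAS proteins, exchange factors and GTPase activators (17 measured, median -0.02), Rras, a RAS relative tied to cell adhesion, rose from 9.78 to 10.03, by 0.25 (SE 0.04, adjusted p = 0.0281 by limma). Nf1, the neurofibromin gene whose product SPRED proteins recruit, differed by -0.12 (0.139) and Nras by 0.14 (0.185). An unadjusted p under 0.05 was found in 4 of 20 genes of the receptor list and 6 of 17 of the RAS list.

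The core of the cascade gave no call. In the list of RAF, MEK, ERK and scaffold genes (10 measured, median 0.05), the smallest p-values were those of Braf (-0.07, adjusted p = 0.216 by limma), Pebp1, a RAF inhibitor (0.08, 0.263), and the scaffold Iqgap1 (0.15, 0.304). Of 4 kinases downstream of ERK, Rps6ka3, which codes for RSK2, differed by -0.18 (adjusted p = 0.165), and Mknk1 and Mknk2 by 0.03 (0.866) and -0.06 (0.723). The kinases of the JNK, p38 and ERK5 branches, with the MAP2 kinases that activate them (12 measured, median -0.04), gave no call. JNK and p38 are also substrates of Dusp1, while Map2k5, the activator of ERK5, had the smallest p-value of this list (-0.13, adjusted p = 0.127), before Map2k6 (-0.08, 0.342) and Mapk10 (-0.06, 0.543). An unadjusted p under 0.05 was found in 4 of 10, 1 of 4 and 1 of 12 genes of these 3 lists, and in 15.0% of all genes.

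The other inhibitors gave no call either, with an unadjusted p under 0.05 in 5 of 13 phosphatases and 4 of 13 feedback inhibitors, beside the 15.0% of all genes. Of 13 other MAP kinase phosphatases, 5 had a lower and 8 a higher mean, with a median of 0.01. Dusp7, the ERK phosphatase closest in kind to Dusp6, differed by -0.14 (limma adjusted p = 0.127), Ptpn5, the striatal-enriched phosphatase STEP, by 0.10 (0.165) and Dusp19 by 0.18 (0.165). Of 13 other feedback inhibitors, 9 had a lower mean, with a median of -0.04. Trib1 differed by -0.11 (0.247), Lrig3 by -0.09 (0.259), and the remaining members of the families, Spry3 and Spred3, differed by -0.13 (0.39) and 0.06 (0.673). Sulf1, an extracellular sulfatase that tunes FGF signalling, had the highest difference of the 112 genes, 0.78 ± 0.31 (SE, adjusted p = 0.26). Its signal was 7.05 and 7.14 in control replicates 2 and 3 and 8.02 to 9.14 on the other arrays. These are the controls with low Ttr. Without them the difference was 0.25, and with the choroid plexus score as a covariate it was -0.02.

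Of the 23 nuclear factors and output genes of ERK, 18 had a lower mean in Dp1Rhr mice, and the median was -0.07. An unadjusted p under 0.05 was found in 7 of the 23, and in 3 every Dp1Rhr array lay below every control. Over all genes, 50.1% had a lower mean, 15.0% had such a p and 1.70% had no overlap in that direction. Junb, an AP-1 subunit, fell from 7.88 to 7.56, by 0.32 (SE 0.05, adjusted p = 0.0269 by limma), with no overlap between the groups. Fos, another AP-1 subunit, read 6.68, 7.61, 8.003, 6.93 and 6.94 in controls and 6.46 to 6.64 in Dp1Rhr mice. Its groups did not overlap, and its controls spread over more than 1 log2 unit. The difference of -0.68 ± 0.21 (SE) did not pass (limma adjusted p = 0.138). Without control replicates 2 and 3 it was -0.30 (adjusted p = 0.128), and with the choroid plexus score as a covariate -0.25 (0.57). Egr1 read 10.16, 10.72, 10.92, 10.17 and 10.36 in controls and 9.95 to 10.09 in Dp1Rhr mice. Fosl2 differed by -0.23 (adjusted p = 0.111). In Fos and Egr1, as in Dusp1, control replicates 2 and 3 were the highest arrays. Etv1, Etv4 and Etv5, the PEA3 group of ETS factors and targets of FGF signalling, differed by -0.10 (adjusted p = 0.243), -0.09 (0.404) and 0.14 (0.547).

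**Figure D4:**
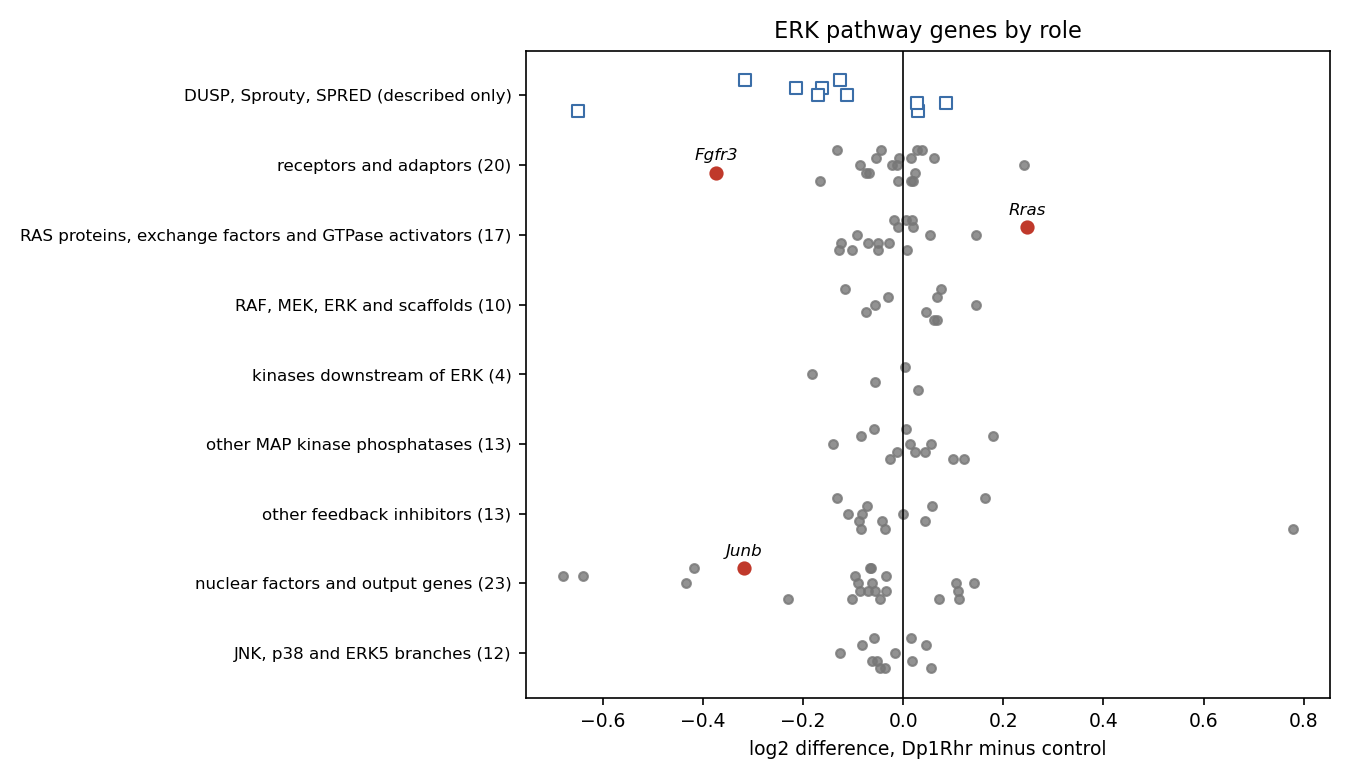
Difference in mean log2 RMA signal, Dp1Rhr minus control, for each measured gene of the cascade by role, with the 10 inhibitor genes as a group of their own. Most genes lie near 0; outside the 10 inhibitor genes, Fgfr3, Junb and Rras passed the test, and Sulf1 (0.78) and Fos (-0.68) are farthest from 0 without passing.

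The 3 calls depended on the arrays used. Without control replicates 2 and 3, the adjusted p by limma was 0.101 for Fgfr3, 0.109 for Junb and 0.109 for Rras, and none of the 112 genes passed. Of the 10 fits that each left out 1 array, Fgfr3 missed the threshold in 9 (all but that without Dp1Rhr replicate 5), and Junb and Rras in 6 (those without control replicate 2, 3 or 5 or Dp1Rhr replicate 1, 2 or 4). With the choroid plexus score as a covariate, Fgfr3 differed by -0.52 (adjusted p = 0.0196), and Junb and Rras did not pass (0.117 each).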

How the data were processed

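Total RNA of both hippocampi of 10 mice was hybridised to Affymetrix Mouse Gene 1.0 ST arrays, each mouse on its own array. The authors processed the scans with RMA (background correction, quantile normalization, summary per probe set) and deposited log2 values. From the submitters' processing notes come also limma and the build mm10. Neither the RMA version nor the set of arrays normalized together is given in the sources used here. Quantile normalization gives all arrays near-equal distributions (array medians 6.77 to 6.83), so a change shared by all genes could not be seen. The number of arrays, 5 per group, limits the precision.

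Of 35556 probe sets, 21789 had 1 gene symbol in the platform annotation, 1621 had several and 12146 were unnamed here; only the first were used. Where a gene had several probe sets (999 genes), that with the highest mean over all arrays stood for it, which gave 19938 genes. Coordinates and promoter windows are from RefSeq (GRCm38.p6), and motifs were searched on both strands.

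The comparison of Dp1Rhr and control used limma 3.58.1 in R 4.3.3 (lmFit, eBayes, two-sided, Benjamini-Hochberg adjustment over all genes, threshold 0.05), without a filter on dim probe sets. The code was tested on simulated data. The 10 genes and the lists were chosen with earlier results of these data known. Named were the 10 genes, pathway genes past the threshold, the 3 smallest p-values of each list and the 5 genes most like Dusp1 by Pearson's r of deviations from group means; Fos, Spry3, Spred3 and the Etv genes were added with their values known. The alternatives were a replicate block, leaving out arrays, the choroid plexus score as a covariate, a second quantile normalization, centring, a filter at the 40th percentile, the mean of probe sets, a trended robust prior, array weights, and FCROS, the test of the study's methods, with a trim of 0.25 and limits of 0.025 and 0.975.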

Additional observations from a re-analysis of the deposited data

Results flagged for a closer look

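Within a group of 5 arrays, 4 of the 20 sets of values (10 genes in 2 groups) had 1 array far from the rest by Dixon's test at 95%, which chance alone flags in about 1 of 20 sets. Dusp6 was high in control replicate 3, at 10.29 log2 units against 9.93 to 9.97 in the other controls. Dusp5 was low in Dp1Rhr replicate 3, at 8.60 against 8.82 to 8.89. Spry2 was low in control replicate 2, at 8.77 against 8.88 to 8.90. Spred2 was high in control replicate 2, at 11.25 against 11.14 to 11.17. Control replicates 2 and 3 are those with low choroid plexus markers.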

How the results depend on the processing

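The median difference of the 10 genes, -0.14, stayed between -0.19 and -0.08 with any 1 array left out, and was -0.10 without control replicates 2 and 3 and with the choroid plexus score as a covariate. The number of genes called by limma was 160 (125 higher, 35 lower). It ranged from 5 to 284 with 1 array left out, with 19, 42 and 12 when control replicates 2, 3 and 5 were dropped in turn. Dropping Dp1Rhr replicates 1, 2, 4 and 5 in turn gave 5, 10, 12 and 284. It was 5 without control replicates 2 and 3, 7 with the choroid plexus score, 280 with array weights and 1075 by FCROS, which calls fixed tails. Of the pathway genes, 3 were called, 0 to 3 with 1 array left out, 0 without control replicates 2 and 3, 1 with the choroid plexus score and 12 by FCROS. Centring each array on its median gave 87 higher and 59 lower. With the replicate number as a block, 4 genes and 0 pathway genes were called. The numbers did not pair the arrays: same-numbered arrays correlated from -0.337 to 0.124 in their deviations, and 0 of 5 fitted their own number best. The cause of these shifts was not tested. Of the 10 genes, Dusp1 and Dusp6 were called with the second quantile normalization, centring, the 40th percentile filter, the trended robust prior and array weights. FCROS called Dusp1, Dusp6 and Spred1, and with the replicate block none of the 10 was called. The genes were chosen on this comparison, and nothing is read from these calls. Dusp5 turned to a difference of 0.00 or above without control replicates 2 and 3 and with the score, and Spry1 to 0.00 or below. The number of arrays and the spread among the controls limit what differences of this size could be told from 0.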

Other observations

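The dual specificity phosphatase family has 9 further genes on the arrays that are in none of the lists, mostly atypical phosphatases that do not act mainly on MAP kinases. Their differences between Dp1Rhr and control ran from -0.06 to 0.21 on the log2 scale, none passed the test by limma, and 1 had an unadjusted p under 0.05. That gene was Dusp15, an atypical phosphatase of oligodendrocytes, which read 7.12, 7.36, 7.08, 7.04 and 7.24 in controls and 7.39, 7.43, 7.22, 7.39 and 7.45 in Dp1Rhr mice (difference 0.21, adjusted p = 0.133). All 7 oligodendrocyte markers measured had a higher mean in Dp1Rhr mice, with mean levels of 11.3 to 11.5 in controls and 11.4 to 11.6 in Dp1Rhr mice, and their part in the Dusp15 difference was not tested.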
